A study of Mus musculus with 4 samples.

Results

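The tumor suppressor p53 is a transcription factor that is stabilized by DNA damage and other stress and then switches on genes that halt the cell cycle, repair the cell or kill it. One of its targets, Mdm2, marks p53 for destruction, which closes a feedback loop. In ES cells p53 is abundant, and it is also known to restrain pluripotency genes when such cells differentiate. The 10 genes described here, *Cdkn1a*, *Ccng1*, *Mdm2*, *Trp53inp1*, *Sesn2*, *Phlda3*, *Zmat3*, *Perp*, *Bbc3* and *Aen*, are known targets of p53. They were chosen by name, with earlier results of these data known. Every probe set whose annotation gives 1 of them as its only gene symbol was used. This gave 82 of the 229581 probe sets on the array and 10 of the 16358 genes. The value of a gene on an array is the median over its probe sets.

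RNA came from embryoid bodies (EBs), floating aggregates in which ES cells start to form the germ layers, that were kept in ES cell medium without LIF and without the inhibitor pair called 2i. There were 4 Affymetrix mouse exon 1.0 ST arrays, 1 each for wild type EBs at day 4, wild type EBs at day 8, *Mst-/-* EBs at day 4 and *Mst-/-* EBs at day 8. *Mst-/-* stands for the loss of both Mst1 and Mst2, the kinases at the top of the Hippo pathway, in every cell of the ES line. The sources do not say which of the study's *Mst-/-* lines was on the arrays, and one label of the day 8 *Mst-/-* array reads day 4 while its title and its cell type read day 8. With 1 array per genotype and day there is no spread between replicates, so no test is given, and the error printed with a difference is the SD of that difference over the probe sets of the gene, a technical error that leaves out any variation between cultures. Signals are on the log2 scale, and differences are *Mst-/-* minus wild type unless another order is named. A difference was counted past the study's threshold of 1.5-fold, 0.58 on the log2 scale.

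*Stk4*, the gene of Mst1, checked the deletion: 2 of its 13 probe sets read at least 11.42 in wild type EBs and at most 4.80 in *Mst-/-* EBs. The remaining 11 differed by -0.30 to 0.39. For Mst2, *Stk3* was not analysed here. *Eif2s3y*, a gene of the Y chromosome, was at 10.39 and 10.38 in wild type EBs of day 4 and day 8 and below background, at 4.07 and 4.22, in *Mst-/-* EBs, as the median over 16 probe sets. The ES lines thus differed in more than the deletion, and the deletion and the line cannot be told apart. All 10 p53 target genes lie on autosomes. Background was taken from 1013 genes of olfactory and vomeronasal receptors as their 95th percentile, and it was between 6.91 and 7.03 on the 4 arrays. The p53 target genes were above it on every array, the lowest being *Bbc3* at 8.23. Of the receptor genes 15.5% (day 4) and 12.8% (day 8) passed 1.5-fold, so the threshold says little about dim genes. *Trp53*, the gene of p53, was not analysed here. In bulk RNA of EBs, fewer cells of a type and less RNA per cell cannot be told apart.

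p53 binds a decamer half-site, and its classical response element is a pair of half-sites that lie close together. RefSeq windows of 300 bases, 250 of them upstream of a transcription start, were matched for 7 of the 10 genes with 11 windows. *Trp53inp1*, *Perp* and *Zmat3* had no entry. The p53 half-site decamer, a pattern that reads the same on both strands, was found in 5 of these 11 windows and in 4 of the 7 genes, against 8.36% of all 32851 windows and 9.55% of all 27025 genes. No other motif was searched. Only exact matches were counted. A window of *Cdkn1a* held 2 exact matches, separated by 12 bases, and no window of another matched member held a pair. The decamer directly after the second match departs from the pattern in its first base alone, so it was not counted. The 2 exact matches of *Cdkn1a* therefore need not be its response element. In *Ccng1* the decamer directly before the match departs from the pattern in a single base, so it was not counted either. A pair at most 13 bases apart was present in 24 windows of 20 genes, or 0.0731% of all windows. The stretches around the matches are shown because they are the p53-type letters that these genes carry near their starts, with each half-site in capitals and all sequences 5′ to 3′ on the strand of the gene, from RefSeq GRCm38.p6. That of *Cdkn1a* is chr17:29090879-29090968 on the plus strand, that of *Mdm2* chr10:117710895-117710984 on the minus strand, that of *Ccng1* chr11:40755422-40755511 on the minus strand and that of *Aen* chr7:78895927-78895956 on the plus strand.
Cdkn1a: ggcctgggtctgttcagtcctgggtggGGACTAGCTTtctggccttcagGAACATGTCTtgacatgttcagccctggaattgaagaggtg
Mdm2: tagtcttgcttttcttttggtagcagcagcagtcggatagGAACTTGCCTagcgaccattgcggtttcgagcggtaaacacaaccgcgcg
Ccng1: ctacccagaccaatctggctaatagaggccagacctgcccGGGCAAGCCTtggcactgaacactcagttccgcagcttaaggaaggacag
Aen: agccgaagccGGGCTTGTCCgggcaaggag
Positions were counted from the annotated transcription start of each window, and a gene can have several starts. The half-sites began at positions -73 and -51 of *Cdkn1a*, at -186 of *Mdm2* and at -185 of *Ccng1*. The half-site of *Aen* began at -121 of one annotated start and at 11 of another, so that both of its windows hold it. *Sesn2*, *Bbc3* and *Phlda3* had windows without these letters. A match describes letters and not binding.

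Compared with wild type EBs of the same day, most of the 10 p53 target genes had a higher signal in *Mst-/-* EBs. At day 4, 6 of the 10 were higher past 1.5-fold, namely *Cdkn1a*, *Mdm2*, *Trp53inp1*, *Perp*, *Phlda3* and *Zmat3*, and none was lower. Over all 11943 genes compared on that day 10.3% were higher past the threshold and 8.52% lower. The median difference over the 10 genes was 0.81, against 0.01 over all genes. Above zero were 9 of the 10 differences, against 51.3% over all genes. At day 8, 4 of the 10 were higher, *Mdm2*, *Trp53inp1*, *Perp* and *Zmat3*, and none was lower, while 8.42% of 12171 genes were higher and 8.22% lower. The median over the 10 genes was 0.51 on that day, against 0.05 over all genes. Again 9 differences were above zero, against 55.6% over all genes. The 4 genes higher at day 8 were also higher at day 4, so that 4 of the 10 passed on both days, against 3.72% of the 11595 genes compared on both. That count was 3 without *Mdm2* after centring or quantile normalization, 2 (*Trp53inp1* and *Perp*) with the brightest probe set, and 0 at a threshold of 2-fold. Single probe sets gave the same picture. Of the 82 probe sets, 76 (92.7%) had the higher signal in *Mst-/-* EBs at day 4 and 70 (85.4%) did at day 8. Over all genes above background these shares were 49.6% and 52.4%. Probe sets of a gene share their RNA and are not replicates.

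**Figure D1:**
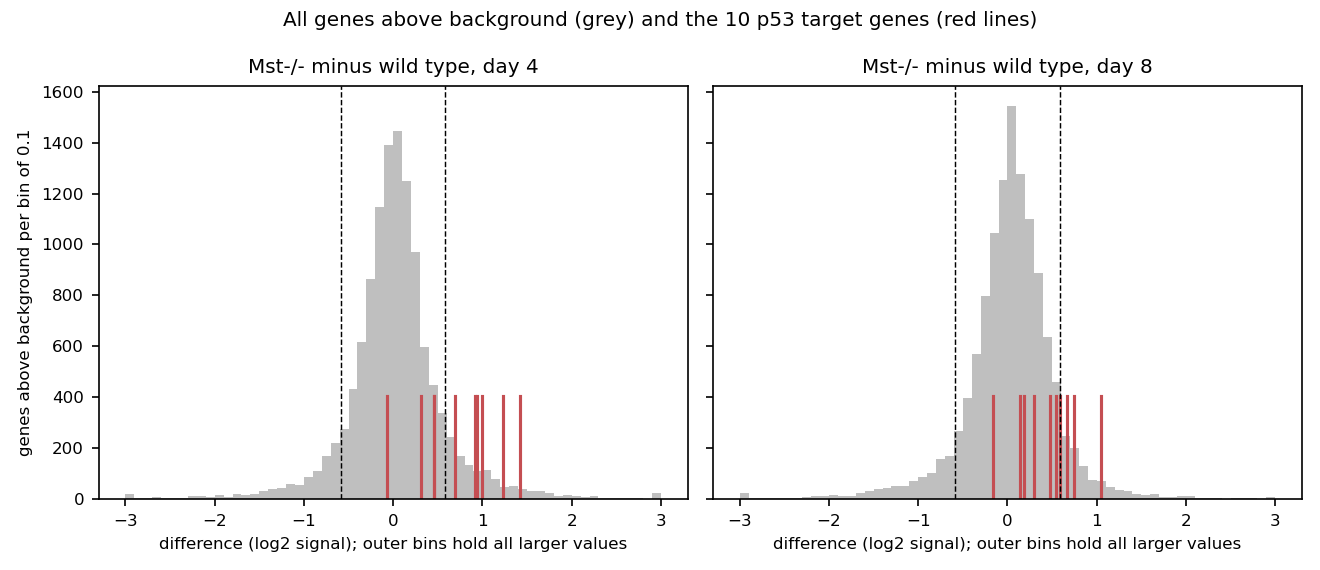
Number of genes above background (grey, bins of 0.1) by their *Mst-/-* minus wild type difference in log2 signal at day 4 (left) and day 8 (right), with the 10 p53 target genes as red lines of equal height and 1.5-fold as dashed lines. At day 4 6 red lines lie to the right of the upper dashed line and at day 8 4 do, and none lies to the left of the lower one.

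Among the genes of cell cycle arrest, *Cdkn1a* encodes p21, the inhibitor of cyclin-dependent kinases that carries out the arrest by p53. Its signal was 9.70 in wild type EBs at day 4, 11.15 in wild type EBs at day 8, 11.12 in *Mst-/-* EBs at day 4 and 11.29 in *Mst-/-* EBs at day 8. The wild type array of day 4 was thus the low one, and the other 3 lay close together. The genotype difference was 1.42 ± 0.37 (SD over 5 probe sets), or 2.68-fold, at day 4 and 0.14 ± 0.19 at day 8, where it was within the spread of the probe sets. All 5 probe sets were higher in *Mst-/-* EBs at day 4, by 0.54 to 1.44, and the dimmest of them was below background on every array. From day 4 to day 8 *Cdkn1a* was higher by 1.45 ± 0.61 in wild type EBs, 2.73-fold, and by 0.17 ± 0.07 in *Mst-/-* EBs. Its genotype difference was smaller at day 8 by 1.28 on the log2 scale. It was the one member for which the genotype differences of the days were more than 1.5-fold apart, a distance that 21.5% of 12519 genes reached in either direction.

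*Ccng1* encodes cyclin G1, which recruits a phosphatase to Mdm2. Its signal was 12.85 and 13.01 in wild type EBs at day 4 and day 8 and 13.31 and 13.20 in *Mst-/-* EBs. Both *Mst-/-* arrays were above both wild type arrays, but by little. The difference was 0.46 ± 0.17 (SD over 9 probe sets) at day 4 and 0.19 ± 0.14 at day 8, both short of 1.5-fold. All 9 probe sets were higher in *Mst-/-* EBs at day 4 and 8 of them at day 8.

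The feedback on p53 was represented by *Mdm2* and *Trp53inp1*. *Mdm2* encodes the ubiquitin ligase that brings p53 down. Its signal was 10.25 and 10.38 in wild type EBs at day 4 and day 8 and 11.25 and 10.97 in *Mst-/-* EBs. Both *Mst-/-* arrays were above both wild type arrays, the day 4 array most. All 14 probe sets of *Mdm2* were higher in *Mst-/-* EBs on both days, by 0.77 to 1.35 at day 4 and by 0.38 to 0.77 at day 8. The difference of the gene was 1.00 ± 0.15, or 2.00-fold, at day 4 and 0.58 ± 0.13 at day 8. The day 8 value lay on the threshold itself, and it was 0.57 with the arrays centred on their medians and 0.56 after quantile normalization, both just below it.

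*Trp53inp1* encodes a stress-induced nuclear protein that promotes the phosphorylation and activity of p53. Its signal was 11.25 and 11.34 in wild type EBs at day 4 and day 8, and 12.48 and 12.08 in *Mst-/-* EBs. The *Mst-/-* arrays lay well above the wild type arrays on both days, and all 6 probe sets did so as well, by 1.00 to 1.35 at day 4 and by 0.58 to 1.04 at day 8. The difference was 1.23 ± 0.13, or 2.34-fold, at day 4 and 0.74 ± 0.16, or 1.68-fold, at day 8. In wild type EBs the gene was nearly level between the days, with 0.08 ± 0.06 for day 8 minus day 4, and in *Mst-/-* EBs it was lower at day 8 by 0.40 on the log2 scale, short of 1.5-fold.

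**Figure D2:**
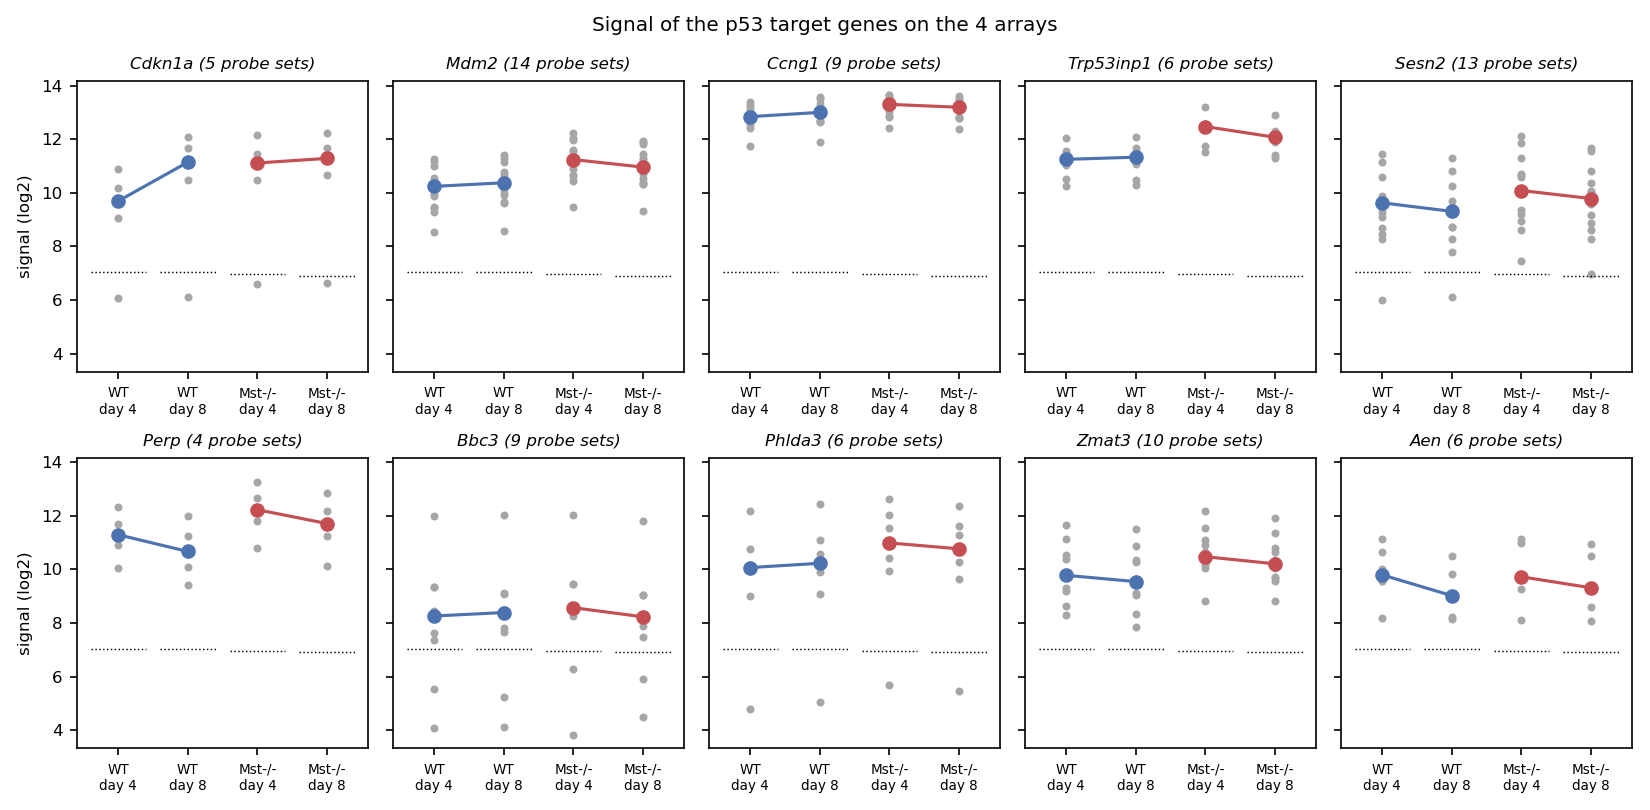
Signal (log2) of each p53 target gene on the 4 arrays, with the gene value as a large circle (blue wild type, red *Mst-/-*, a line joining day 4 to day 8), its probe sets as grey dots and the background of each array as a dotted line. The wild type array of day 4 is the low one for *Cdkn1a*. Both *Mst-/-* arrays are above both wild type arrays for *Mdm2*, *Trp53inp1*, *Perp*, *Phlda3* and *Zmat3* and, by less, for *Ccng1* and *Sesn2*. Heights are to be read within a panel and not between genes.

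*Sesn2* and *Phlda3* are targets that act on growth signaling. *Sesn2* encodes a sestrin, which restrains the growth kinase mTORC1 and limits oxidative stress. Its signal was 9.63 and 9.31 in wild type EBs at day 4 and day 8 and 10.09 and 9.79 in *Mst-/-* EBs. The *Mst-/-* array was the higher one on each day, and within each genotype day 8 was the lower one. The difference was 0.46 ± 0.44 (SD over 13 probe sets) at day 4 and 0.48 ± 0.34 at day 8, below the threshold. At day 4, however, 12 of the 13 probe sets were higher in *Mst-/-* EBs, and their differences ranged from -0.41 to 1.44. The median of those 13 differences was 0.76 and the mean over probe sets gave 0.69, so the call for *Sesn2* at day 4 depended on how its probe sets were summarized.

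*Phlda3* encodes a small pleckstrin homology protein that competes with the survival kinase Akt for membrane lipids. Its signal was 10.07 and 10.23 in wild type EBs at day 4 and day 8 and 10.99 and 10.77 in *Mst-/-* EBs. Both *Mst-/-* arrays were the higher ones. The difference was 0.92 ± 0.43 (SD over 6 probe sets), or 1.89-fold, at day 4 and 0.54 ± 0.28 at day 8. Taken by itself, the brightest probe set gave 0.45 and -0.09 on these days, whereas the probe sets above background without the dim one gave 1.45 and 0.72.

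*Zmat3* encodes an RNA-binding zinc finger protein that acts on the splicing and stability of other transcripts. Its signal was 9.78 and 9.54 in wild type EBs at day 4 and day 8 and 10.47 and 10.21 in *Mst-/-* EBs. Both *Mst-/-* arrays were above both wild type arrays, and all 10 probe sets were higher on both days. The difference was 0.69 ± 0.49, or 1.62-fold, at day 4 and 0.67 ± 0.53, or 1.59-fold, at day 8. A single probe set stood at 2.02 on both days, away from the others, which reached up to 1.04 and 0.98. The median of the probe set differences, 0.54 and 0.47, fell short of the threshold on both days.

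*Perp*, *Bbc3* and *Aen* are tied to cell death. *Perp* encodes a membrane protein of desmosomes that was found as an effector of apoptosis by p53. Its signal was 11.29 and 10.67 in wild type EBs at day 4 and day 8 and 12.23 and 11.71 in *Mst-/-* EBs. All 4 probe sets were higher in *Mst-/-* EBs on both days. The difference was 0.94 ± 0.11, or 1.91-fold, at day 4 and 1.04 ± 0.19, or 2.06-fold, at day 8, so *Perp* was the member with the largest difference at day 8. In both genotypes day 8 was below day 4, by -0.62 ± 0.21 in wild type EBs and -0.51 ± 0.12 in *Mst-/-* EBs. *Perp* is also a gene of epithelia. Over all genes 10.3% were higher past 1.5-fold in *Mst-/-* EBs at day 4 and 8.42% at day 8. Of 11 epithelial markers, 2 were higher past 1.5-fold in *Mst-/-* EBs at day 4 and 6 at day 8, none was lower and none was below background. Their mean log2 signal was 10.52 and 10.56 in wild type EBs at day 4 and day 8 and 10.86 and 11.16 in *Mst-/-* EBs. Their part in the *Perp* difference was not tested.

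*Bbc3* encodes Puma, the BH3 protein that sets off apoptosis at mitochondria. Its signal was 8.26 and 8.39 in wild type EBs at day 4 and day 8 and 8.57 and 8.23 in *Mst-/-* EBs, with little between the 4 arrays. The difference was 0.31 ± 0.47 (SD over 9 probe sets) at day 4 and -0.16 ± 0.34 at day 8, neither larger than its spread over probe sets. At day 4 8 of the 9 probe sets were higher in *Mst-/-* EBs and at day 8 3 of the 9 were.

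*Aen* encodes a nuclease that digests DNA and RNA in apoptosis. Its signal was 9.79 and 9.02 in wild type EBs at day 4 and day 8 and 9.72 and 9.31 in *Mst-/-* EBs. Here the days differed more than the genotypes. The genotype difference was -0.07 ± 0.27 (SD over 6 probe sets) at day 4 and 0.29 ± 0.24 at day 8. At day 4 2 of its 6 probe sets were higher in *Mst-/-* EBs, and it was the one member with a negative difference on that day.

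**Figure D3:**
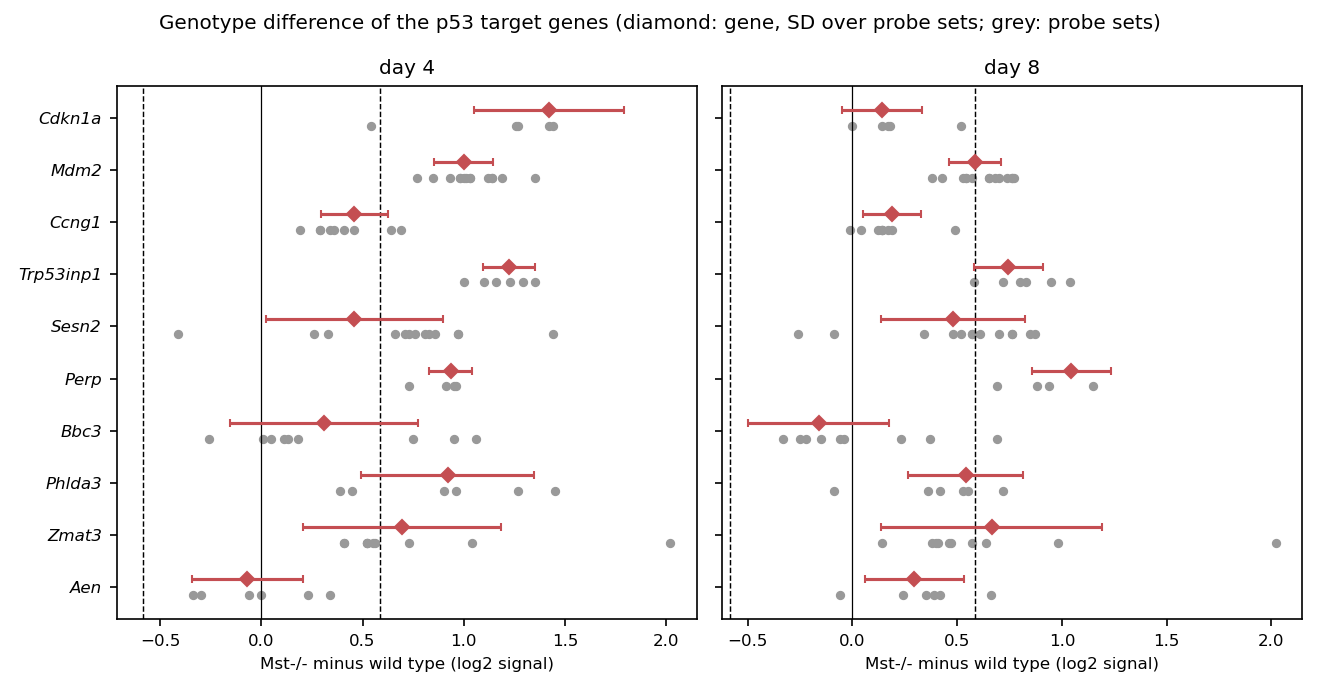
*Mst-/-* minus wild type difference in log2 signal of each p53 target gene at day 4 (left) and day 8 (right), as a red diamond with its SD over probe sets, the probe sets as grey dots and 1.5-fold as dashed lines. The probe sets of *Mdm2*, *Trp53inp1* and *Perp* lie close together and above zero on both days, those of *Cdkn1a* lie at 0.54 to 1.44 at day 4 and at 0.00 to 0.52 at day 8, and those of *Bbc3* and *Aen* lie on both sides of zero.

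Along the course of wild type EBs, from day 4 to day 8, 1 of the 10 genes was higher past 1.5-fold and 2 were lower, with a median of 0.10. *Cdkn1a* was the higher one, and *Perp*, at -0.62, and *Aen*, at -0.78 ± 0.46, were the lower ones. Over all 12084 genes compared, 16.7% were higher and 12.7% lower. In *Mst-/-* EBs none of the 10 passed the threshold in either direction, while 13.3% of 12134 genes were higher and 7.48% lower. Even so, 9 of the 10 genes were at a lower value at day 8 than at day 4 in *Mst-/-* EBs, *Cdkn1a* being the exception. Of all genes, 49.2% had a higher value at day 8 in *Mst-/-* EBs. The median over the 10 genes was -0.29, against -0.01 over all genes. All 14 probe sets of *Mdm2* and all 6 of *Trp53inp1* were lower at day 8 in *Mst-/-* EBs. For 7 of the 10 genes the genotype difference was the larger one at day 4, and the share over all genes was not computed for this count. The differences between days and between genotypes are made from the same 4 arrays and are not independent of each other.

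Within the group the members did not share a single profile. *Mdm2*, *Trp53inp1*, *Phlda3* and *Ccng1* had wild type arrays within 0.16 of each other and *Mst-/-* arrays above them, highest at day 4. The genotype differences of *Ccng1* were short of 1.5-fold on both days. *Perp*, *Zmat3* and *Sesn2* had a lower signal at day 8 in both genotypes and a genotype difference that was nearly the same on both days, since it changed by 0.11, -0.03 and 0.02. *Cdkn1a* stood apart from both. The distance of its profile over the 4 arrays, each gene centred on its own mean, was 0.95 to the nearest member, *Phlda3*, and 0.98 to *Mdm2*. Among 12143 genes ranked by that distance, *Phlda3* came at position 762 and *Mdm2* at position 908. The 5 genes nearest to *Cdkn1a* were *Bhlhe40*, a transcriptional repressor of the basic helix-loop-helix family, at a distance of 0.020, *Kctd12b* at 0.146, *Plk2*, a polo-like kinase, at 0.217, *Mboat1*, an acyltransferase of lysophospholipids, at 0.219 and *Lgals9*, a galectin, at 0.226. *Bhlhe40* was at 7.39 and 8.84 in wild type EBs at day 4 and day 8 and at 8.83 and 9.00 in *Mst-/-* EBs. With 4 arrays a likeness of profiles is a description.

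A further 58 p53 targets were listed, also with earlier results of these data known. Of these, 53 were on the array with a single symbol. Past 1.5-fold, 19 of the 50 compared at day 4 were higher in *Mst-/-* EBs and 1 was lower, and the median was 0.45. For day 8 the counts were 10 higher and 3 lower out of 51, and the median was 0.21. Over all genes, 10.3% were higher at day 4 and 8.42% at day 8, and no test of the difference between the days was made. On both days 7 were higher, namely *Eda2r*, *Gadd45a*, *Gtse1*, *Plk3*, *Sfn*, *Slc19a2* and *Tigar*, out of 50 compared on both, where the share over all genes was 3.72%.

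Of the other targets in cell cycle arrest, 6 of 12 were higher and 1 lower at day 4, and 4 of 12 were higher and 2 lower at day 8. Across the whole array, calls for a higher signal made up 10.3% (day 4) and 8.42% (day 8) of the compared genes. Calls for a lower signal made up 8.52% and 8.22%. *Plk3*, a kinase of the stress response, was at 7.77 and 8.00 in wild type EBs at day 4 and day 8 and at 9.63 and 8.98 in *Mst-/-* EBs. Its difference was 1.86 ± 0.40 at day 4 and 0.98 ± 0.38 at day 8, and all 17 probe sets were higher on both days. *Plk2* was at 9.20 and 10.42 in wild type EBs and at 10.33 and 10.64 in *Mst-/-* EBs, so that its wild type array of day 4 was the low one, as for *Cdkn1a*. *Gadd45a*, which binds the replication clamp and slows growth after damage, differed by 1.08 ± 0.74 and 0.76 ± 0.42, and *Gtse1*, a protein of the G2 phase that binds p53, by 0.91 ± 0.33 and 0.78 ± 0.41. *Ccng2*, a cyclin that FoxO factors also switch on, went the other way, with -0.86 ± 0.45 and -0.80 ± 0.41.

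Of the other targets in cell death, 5 of 14 were higher and none lower at day 4, and 2 of 15 were higher and 1 lower at day 8. The day 8 counts were near the shares over all genes, 8.42% higher and 8.22% lower. At day 4 those shares were 10.3% and 8.52%. *Eda2r*, a receptor of the tumor necrosis factor family, was at 9.94 and 10.04 in wild type EBs at day 4 and day 8 and at 11.34 and 10.72 in *Mst-/-* EBs. Its difference was 1.40 ± 0.18 at day 4 and 0.68 ± 0.30 at day 8, and the gene lies on the X chromosome, where the sex chromosomes of a line and the deletion cannot be told apart. *Steap3*, a reductase of iron uptake, differed by 1.59 ± 1.06 at day 4 and 0.06 ± 0.18 at day 8. *Bid*, a BH3 protein cut by caspase-8, and *Pidd1*, a scaffold that activates a caspase, differed by 0.70 ± 0.21 and 0.68 ± 0.30 at day 4 and fell short of the threshold at day 8. For *Bid* at day 4 the median of the probe set differences was 0.45, short of the threshold, so its call depended on the summary. *Dram1*, a lysosomal protein of autophagy, was higher by 0.85 ± 0.41 at day 8. *Fas*, the death receptor, was at 7.94 in wild type EBs at day 8 and below background on the other 3 arrays, and it was at least 2.05-fold lower in *Mst-/-* EBs on that day.

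Of the 5 other feedback genes 1 was higher on each day and none lower, a count that rests on a single gene. Over all genes 10.3% were higher at day 4 and 8.42% at day 8. *Pml*, the scaffold of nuclear bodies that hold p53, differed by 2.01 ± 0.41 at day 4, with all 17 probe sets higher, and by 0.57 ± 0.15 at day 8. *Ppm1d*, the phosphatase that reverses the damage signal to p53, was level at day 4, with -0.04 ± 0.23, and higher by 0.72 ± 0.21 at day 8. The median of its probe set differences at day 8 was 0.45, short of the threshold, so that call depended on the summary. Of the 19 targets in repair and metabolism, 7 were higher at day 4 and 3 at day 8, and none was lower. *Ephx1*, an epoxide hydrolase, was below background in wild type EBs at day 4, and *Mst-/-* EBs exceeded it by at least 3.0-fold. *Pltp*, a carrier of phospholipids in plasma, differed by 1.25 ± 0.27 at day 4 and by -0.57 ± 0.22 at day 8. *Slc19a2*, a thiamine transporter, differed by 0.86 ± 0.38 and 0.95 ± 0.35 on these days, and *Tigar*, a phosphatase that holds back glycolysis, by 0.83 ± 0.69 and 0.71 ± 0.57. For *Tigar* at day 8 the median of the probe set differences was 0.53, short of the threshold. *Dcxr*, a reductase of sugars, was higher by 0.89 ± 0.59 at day 8.

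**Figure D4:**
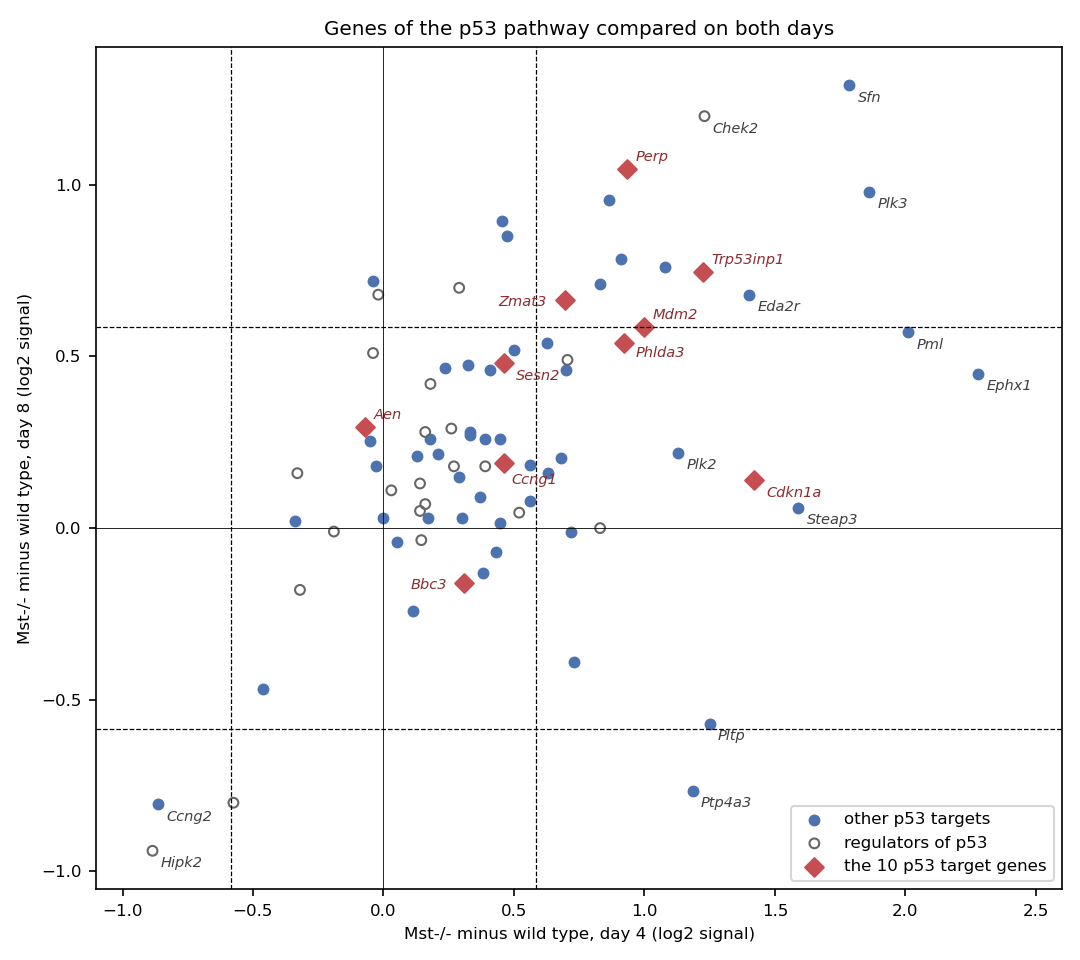
*Mst-/-* minus wild type difference in log2 signal at day 4 (horizontal axis) and day 8 (vertical axis) for the 10 p53 target genes (red diamonds), other p53 targets (blue) and regulators of p53 (open circles) that were compared on both days, with 1.5-fold as dashed lines. Most points lie right of zero, *Cdkn1a*, *Plk2* and *Steap3* near zero on the vertical axis, *Perp*, *Trp53inp1*, *Plk3*, *Sfn* and *Chek2* high on both axes, and *Ccng2* and *Hipk2* low on both.

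The regulators that act on p53 had median differences a little above those of all genes, which were 0.01 at day 4 and 0.05 at day 8. Of 22 compared at day 4, 3 were higher and 1 lower (median 0.15), and of 23 compared at day 8, 3 were higher and 3 lower (median 0.13). These counts were near the shares of all genes, 10.3% higher and 8.52% lower at day 4 and 8.42% and 8.22% at day 8. *Chek2*, a kinase that relays DNA breaks to p53, was at 9.00 and 8.28 in wild type EBs at day 4 and day 8 and at 10.23 and 9.48 in *Mst-/-* EBs. Its 17 probe sets were all higher on both days, and its difference was 1.23 ± 0.28 and 1.20 ± 0.25. *Hipk2*, another kinase of p53, was lower on both days, at -0.88 ± 0.34 and -0.94 ± 0.17. *Trp73*, a relative of p53, and *Cdkn2a*, the locus of the Mdm2 inhibitor Arf, differed by 0.83 ± 0.59 and 0.70 ± 0.50 at day 4 and passed at day 4 alone. *Ppp1r13b*, a cofactor of p53, and *Trp63*, its relative in epithelia, were lower at day 8, by -0.80 ± 0.26 and -0.78 ± 0.51.

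p21 represses many cell cycle genes through the DREAM complex, so these genes were set beside *Cdkn1a*. Of 15 such genes 1 was higher in *Mst-/-* EBs at day 4 and 2 were at day 8, none was lower on either day, and their medians were 0.03 and 0.20. Over all genes 10.3% and 8.42% were higher on these days. *Mybl2*, the factor B-Myb that drives mitotic genes, was higher by 1.33 ± 0.22 and 1.32 ± 0.22 on the 2 days, and *Kif23*, a kinesin of cytokinesis, by 0.59 ± 0.40 at day 8. For *Kif23* at day 8 the median of the probe set differences was 0.54, short of the threshold. In wild type EBs, where *Cdkn1a* was higher at day 8, all 15 genes had a value below that of day 4, with a median of -0.29. Of the 15, 3 were lower past 1.5-fold, beside 12.7% of all genes. In *Mst-/-* EBs 11 of the 15 had a lower value at day 8, none past 1.5-fold, with a median of -0.13. Over all genes, 48.0% had a higher value at day 8 in wild type EBs and 49.2% in *Mst-/-* EBs. A part of p21 in the values of these genes was not tested.

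Markers of cell types moved with the genotype as well. The shares of all genes past 1.5-fold were 10.3% higher and 8.52% lower at day 4, and 8.42% and 8.22% at day 8. Of 10 pluripotency markers 7 were higher past 1.5-fold in *Mst-/-* EBs at day 4 and 8 at day 8, none was lower, and none was below background. Their mean log2 signal was 9.53 and 9.06 in wild type EBs at day 4 and day 8 and 10.88 and 10.25 in *Mst-/-* EBs. At day 8, 9 of 11 markers of blood and vessel were lower in *Mst-/-* EBs, as were 7 of 10 markers of mesenchyme and 4 of 8 of visceral endoderm. Mean log2 signals at day 8 were 10.81 in wild type and 9.54 in *Mst-/-* EBs for blood and vessel, 11.65 and 9.87 for mesenchyme and 10.98 and 10.27 for visceral endoderm. At day 4, 3 of 9 compared markers of blood and vessel were higher and 3 lower, with *Pecam1* at 2.75 and *Kdr* at -4.11, so that their means, 7.50 in wild type and 7.43 in *Mst-/-* EBs, hide large moves of single genes. On that day 1 of 8 compared markers of mesenchyme was higher and 2 lower, and 1 of 7 of visceral endoderm was higher and 1 lower. Each of these counts rests on 1 or 2 genes, and those of higher genes were near the share of all genes. In wild type EBs at day 4, 4 markers of blood and vessel, 3 of mesenchyme and 2 of visceral endoderm were at or below background, and in *Mst-/-* EBs 3, 2 and 1 were. The part of these cell types in the differences of the p53 target genes was not tested.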

How the data were processed

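The 4 EB samples, 1 per genotype and day, were hybridized to 1 Affymetrix exon array each, and the number of arrays limits the precision. The table deposited by the authors holds log2 signals of probe sets. Per the submitters' processing notes it was made with the Affymetrix Expression Console, of which no version is named. How the log2 signals were normalized: not given in the sources used here. Partek, Genespring and the threshold of 1.5-fold come from the study's methods.

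Probe sets with 1 gene symbol in the platform annotation (209279) were used, and those with several (4446) or none (15856) were left out. Of 16380 array symbols, 14190 were current in RefSeq GRCm38.p6, 2145 were updated through a synonym and 45 were kept. Gene values were medians over probe sets without further scaling. A comparison used the genes above background on 1 or both of its arrays, and where 1 array was at background the fold is a bound against that background.

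The members and gene lists were chosen with earlier results of these data known, and lists are described by counts and medians with no test. Named genes were the members, up to 4 genes of each list and day with the largest difference past 1.5-fold, at least 3 probe sets and 75% of them of the same sign, the 5 genes nearest to *Cdkn1a*, and *Stk4*. *Eif2s3y*, *Sfn*, *Pecam1* and *Kdr* were named after their values were seen. Alternatives changed the scaling (centring, quantiles), the summary of probe sets (mean, brightest, those above background, median of differences), the background (99th percentile, no filter, values raised to it) and the threshold (2-fold). The computation was tested on simulated arrays. Python 3.11.15, numpy 2.4.6, pandas 2.3.3 and matplotlib 3.10.9 were used.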

Additional observations from a re-analysis of the deposited data

Results flagged for a closer look

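For *Ptp4a3* and *Steap3*, other targets of p53, the gene values moved in opposite directions past 1.5-fold, and the difference was not tested for either. *Ptp4a3*, a phosphatase, was at 9.31 and 10.55 in wild type EBs at day 4 and day 8 and at 10.50 and 9.79 in *Mst-/-* EBs. Its genotype difference was 1.18 at day 4 and -0.77 at day 8. From day 4 to day 8 it was higher by 1.24 in wild type EBs and had a change of -0.71 in *Mst-/-* EBs. *Steap3* changed by 0.68 ± 0.66 (SD over 9 probe sets) in wild type EBs and by -0.85 ± 0.48 in *Mst-/-* EBs. The median of its probe set differences in wild type EBs was 0.12, so its probe sets do not bear out a wild type move past 1.5-fold. *Ephx1* had a measured day 8 minus day 4 value of 0.77 in wild type EBs and -1.06 in *Mst-/-* EBs. It was below background in wild type EBs at day 4, and against that background its wild type change was at least 1.05-fold, so an opposite move past 1.5-fold is not shown for it, and its difference was not tested either. None of the 10 p53 target genes showed such opposite moves past 1.5-fold.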

How the results depend on the processing

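Of 10 alternatives, 4 (the 2-fold threshold, both changes of the background filter and values raised to background) left every member difference as it was. Under the other 6, 217 of 240 differences stayed within their SD over probe sets, 23 moved beyond it and none past the threshold changed sign. Over all 10, 25 calls changed. Leaving the 2-fold threshold aside, the day 4 count of members past 1.5-fold ranged from 5 to 7 with medians of 0.59 to 0.84, and the day 8 count from 2 to 5 with medians of 0.38 to 0.53. With the brightest probe set the day 8 count was 2. With the arrays centred on their medians 1 member, *Perp*, was lower at day 8 in *Mst-/-* EBs, and the median of that comparison was -0.45. With the probe sets above background only, 2 members had genotype differences more than 1.5-fold apart between the days. At a threshold of 2-fold, 2 members were counted at day 4, 1 at day 8 and 1 over time in wild type EBs. The median of probe set differences was added after the data were seen, and it took *Zmat3* below the threshold on both days and *Sesn2* above it at day 4. *Bbc3* came nearest to background, which limits the precision of its differences.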
